A study of Arabidopsis thaliana with 58 samples.

Results

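Transposable element genes are the annotated gene models of transposons and retrotransposons, most of them the remains of the reading frames that the elements use to copy or move themselves. In the gene count table of this Arabidopsis thaliana series they carry a locus identifier with a suffix, as in AT5G43800.1, and by that suffix 3884 of the 33331 genes on chromosomes 1 to 5 were taken. The choice used only identifiers and no measured value. All 3884 were found by locus in the RefSeq gene table of the assembly TAIR10.1, which has no type for transposons: 3882 stand there as pseudogenes and 2 as protein coding, whereas 90.8% of the 29420 genes without a suffix are protein coding. A symbol of its own was given to 28, of which 16 are SADHU and 8 are MUG genes. The genes without a suffix are called other genes here, and 27 genes with another suffix were kept out of both sets.

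In plants most transposable elements are kept silent by DNA methylation together with methylation of histone H3 at lysine 9, and many lie in the compact chromatin around the centromeres. Methylation of lysine 4 of histone H3 (H3K4) is a mark of the other state: H3K4me3 and H3K4me2 sit near the starts of genes that are or can be transcribed, and H3K4me1 lies over the bodies of transcribed genes. PICKLE (PKL) is a chromatin remodeller of the CHD3 class that is known for its part in seedling development and the repression of embryonic genes.

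The series set the chromatin of wild type (WT) seedlings, ecotype Col-0, beside that of the pkl mutant, and mapped PKL in WT and in the mutants jaw-5D, pifQ and hy5. In jaw-5D a microRNA that lowers TCP transcription factors is overproduced, pifQ lacks 4 phytochrome interacting factors and hy5 lacks the light response factor HY5; the labels do not give the pkl and hy5 alleles. All libraries came from whole seedlings at 9 days of age in continuous white light, with 3 biological replicates a group. Used here were 18 peak lists of H3K4me1, H3K4me2 and H3K4me3 in WT and pkl, 12 peak lists of PKL in the 4 lines, and polyadenylated RNA from pkl alone. Because whole seedlings were measured, fewer cells that carry a mark or a transcript and less of it per cell cannot be told apart. The histone lists held between 14395 and 21880 peaks, and the PKL lists of the 3 mutants between 11379 and 13979. The PKL lists of WT stood apart with 821, 632 and 2827 peaks, named the chromosomes in another way and ended at a −log10 q of about 2 where the others ended at about 1.3, so list format and genotype cannot be told apart in any comparison of PKL with WT. The read depth behind the peaks is unknown, and RNA totals were between 17300314 and 17656899 counts.

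The transposable element genes lay where other genes are few. Their median span was 2054.5 bp, against 1825 bp for other genes, and 85.5% had a single exon. In windows of 1 Mb, 1 run on each chromosome held at least 50% transposable element genes: these core windows took 2077 of the 3884 (53.5%) and 2.74% of the other genes. The median distance to the nearest other gene was 9116 bp in the core windows and 1843 bp outside, and 57 overlapped another gene.

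By the peak lists, nearly all transposable element genes lacked the H3K4 marks. How reads that match several copies of an element were treated is not given in the sources used here. A missing peak of a histone mark or of PKL therefore does not prove that the mark or PKL was absent, and this was not tested. A gene was counted as marked where peaks covered at least 150 bp of its span. H3K4me1 marked 75, 65 and 62 transposable element genes in the 3 WT libraries and 61, 71 and 80 in the pkl libraries. H3K4me2, the most frequent of the 3 marks on them, was on 141, 129 and 128 in WT and on 134, 141 and 136 in pkl. H3K4me3 was on 80, 80 and 78 in WT and on 80, 80 and 81 in pkl. These are between 1.57% and 3.63% of all transposable element genes, while the same lists marked between 43.7% and 64.4% of the other genes. The difference was −43.1 percentage points for H3K4me1, −59.2 for H3K4me2 and −54.1 for H3K4me3, and it had the same sign in all 6 libraries of each mark (exact two-sided sign-flip permutation test over libraries, p = 0.03125 for each mark, the smallest that 6 libraries allow; adjusted over the 4 antibodies 0.03125). By length, H3K4me3 peaks covered 0.582% ± 0.012 (SD, n = 3) of the summed span of transposable element genes in WT and 19.3% ± 0.49 of that of other genes.

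The gap was also present among genes of the same chromosome regions. In the core windows, H3K4me3 was on 23.1% ± 0.29 (SD, n = 3) of the other genes in WT and on 0.514% ± 0.028 of the transposable element genes. Outside the core windows the shares were 56.7% ± 0.05 and 3.80% ± 0.032. The differences in the core windows were −17.2 percentage points for H3K4me1, −21.2 for H3K4me2 and −22.75 for H3K4me3, again with 1 sign in all 6 libraries (exact sign-flip permutation test, p = 0.03125 each, the smallest possible). The plot of shares by library shows the transposable element genes of the core windows lowest in every histone library.

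**Figure D1:**
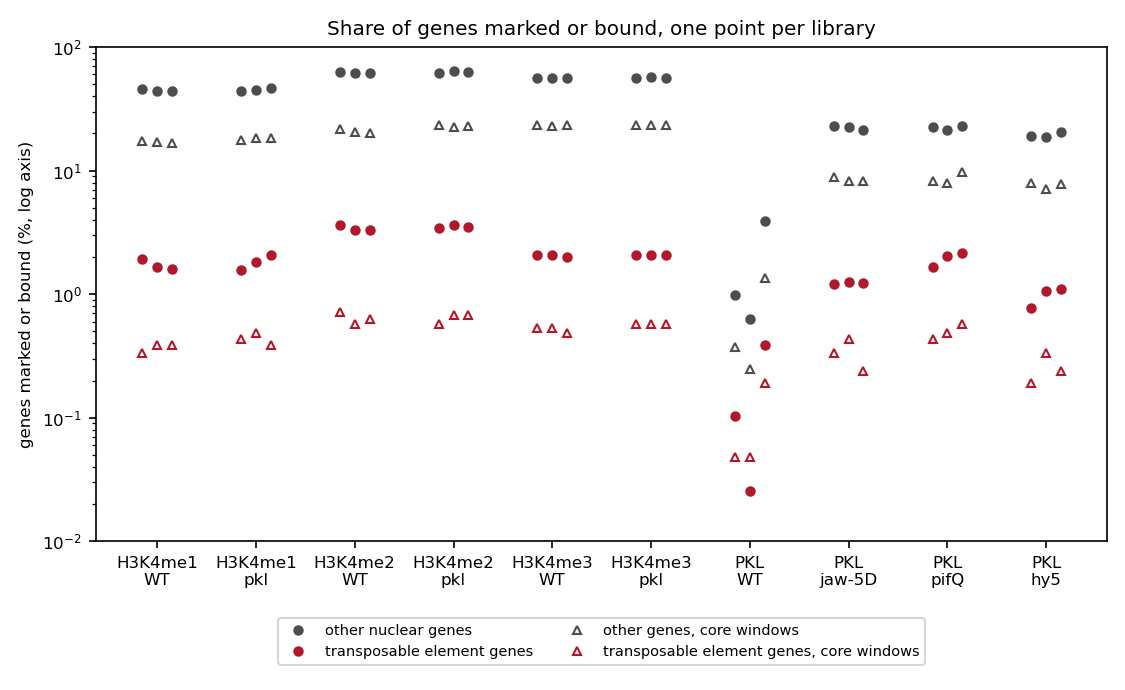
Percent of genes marked by each histone mark (at least 150 bp under peaks) or bound by PKL (at least 50 bp), on a log axis, with 1 point for each library of 3 per group; red stands for transposable element genes, grey for other genes, and open triangles for the genes of the core windows. For the histone marks the red circles lie between 1.57% and 3.63% and the grey circles between 43.7% and 64.4%, and the PKL libraries of WT lie below those of the mutants.

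The share marked did not differ detectably between pkl and WT. The mean share of transposable element genes marked was 0.0858 percentage points higher in pkl for H3K4me1, 0.112 higher for H3K4me2 and 0.0257 higher for H3K4me3. The replicate groups overlapped or touched for each mark (exact permutation tests over splits of 3 against 3, p = 0.7, 0.5 and 0.6, where the smallest possible is 0.1).

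Some 181 transposable element genes carried a histone mark in at least 1 of the 18 libraries, and 3703 (95.3%) carried none; among other genes 27.2% carried none. The marked genes lay close to other genes, at a median distance of 604 bp against 4933 bp for those never marked, and 13.8% of them lay in the core windows against 55.4%. Their median spans were alike, at 2301 and 2043 bp. In RNA from pkl, 40.3% of the marked genes reached an FPKM of 1 (fragments per kilobase of gene, scaled to library size) in all 3 libraries, which is called expressed here, against 0.594% of those never marked. These are descriptions over genes of the same libraries, and the marks, position and RNA were not tested against each other.

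In all 3 WT libraries H3K4me1 was on 51 transposable element genes, H3K4me2 on 117 and H3K4me3 on 73; in all 3 pkl libraries the numbers were 50, 128 and 74. Most peaks over these genes had their summit inside them: the summit of a replicate 1 peak lay inside 49 of the 51, 109 of the 117 and 69 of the 73, and for 4, 6 and 9 of them such a peak also reached another gene. By the authors' fold enrichment for each peak, which is used here only to describe a list, the median of the best peak over a marked transposable element gene was 2.76 for H3K4me1, 3.54 for H3K4me2 and 5.79 for H3K4me3 in WT replicate 1. The medians over all peaks of the same lists were 2.81, 2.96 and 5.87.

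The marks combined on transposable element genes in other proportions than on other genes. Of those with any mark in all 3 WT libraries, 47 had H3K4me2 alone, 34 had H3K4me2 with H3K4me3, 26 had all 3 marks, 11 had H3K4me1 alone and 9 had H3K4me3 alone. Among other genes all 3 marks together were the most frequent state, on 9825 genes, and H3K4me2 alone was on 2405. Of the 47 with H3K4me2 alone 4 were expressed in pkl (8.51%), against 43.0% of other genes in that state. Of the 26 with all 3 marks 22 were expressed (84.6%), against 98.5% of other genes. Among the marked states the expressed share was lowest for H3K4me2 alone in both kinds of gene.

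Along the span, the marks had the order known from other genes but were less sharply placed. Each span was split into 10 bins of equal length. In WT, H3K4me3 covered on average 59.8% of the first bin in 73 marked transposable element genes and 82.9% in 15873 other genes. In the seventh bin it covered 30.2% and 16.3%. H3K4me1 peaked in the sixth bin in both kinds of gene, at 65.8% of 51 and 89.1% of 11992 genes, and covered 19.6% and 3.37% of the first bin. The profiles describe averages over genes and were not tested.

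**Figure D2:**
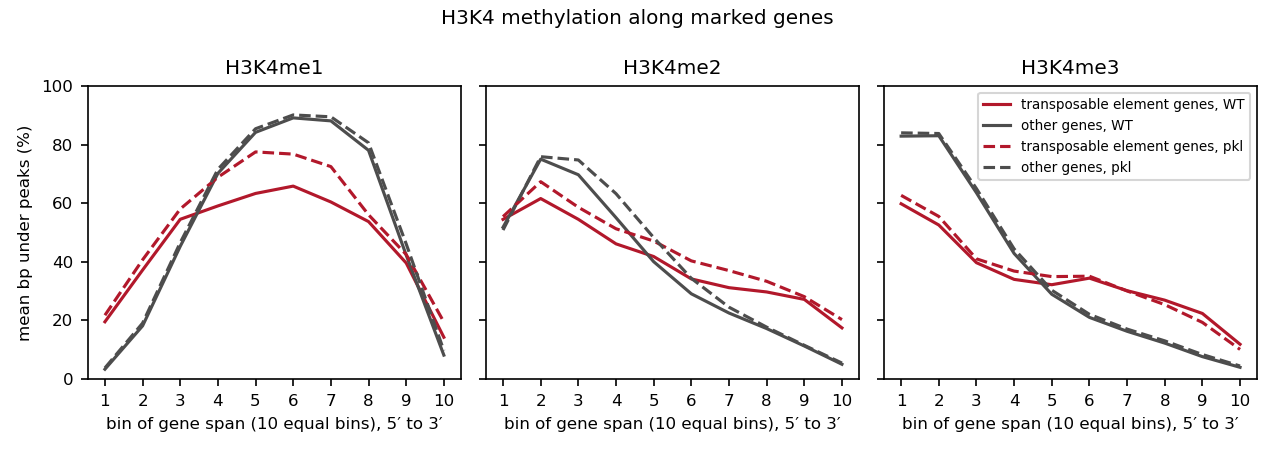
Mean percent under peaks of each of 10 equal bins of the gene span, from the annotated start to the end of the gene, for genes marked in all 3 libraries of WT (solid lines) or of pkl (dashed lines) with a span of at least 500 bp; red is transposable element genes and grey is other genes. H3K4me3 is highest at the start and H3K4me1 in the middle of both, and the red curves are flatter, as with 30.2% against 16.3% for H3K4me3 in the seventh bin.

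The genes described next were among the 4 per mark with the largest percent of their span covered in WT, of those at least 1000 bp long and marked in all 6 libraries; longer genes such as AT2G11240.1 and AT2G05980.1 had more bp under peaks and a smaller percent. For H3K4me1 this percent in WT was 87.95% at MUG2, 86.3% at AT1G64250.1, 82.9% at AT1G80020.1 and 81.4% at AT5G34853.1. AT1G64250.1 (chromosome 1, 23840888 to 23843251, TAIR10) had 1998, 2245 and 1877 bp under H3K4me1 peaks in WT and 2061, 2212 and 2129 bp in pkl. AT1G80020.1 (chromosome 1, 30100473 to 30103899) had 2797, 2897 and 2831 bp in WT and 2786, 2785 and 2903 bp in pkl, and was expressed at 14.5 ± 1.3 FPKM (SD, n = 3). Neither differed between genotypes by more than its replicates spread. For H3K4me2 AT1G19415.1 was covered over 964 ± 128 bp of its span in WT and 1119 ± 17.6 bp in pkl, with a level of 0.149 ± 0.097 FPKM. AT1G35612.1, in a core window, had 893 ± 90 bp of H3K4me3 in WT and 845 ± 45 bp in pkl and a level of 16.0 ± 0.43 FPKM. So a largely covered span was found both with and without RNA of more than 1 FPKM.

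The named families differed in their marks. SADHU elements are short retroposons that do not encode the proteins for their own movement, and MUG (MUSTANG) genes are a family of transposases, of the Mutator kind, that were taken over by the plant. H3K4me1 was in all 3 WT libraries on 8 of the 8 MUG genes and on 0 of the 16 SADHU genes, and in pkl on the same numbers. H3K4me3 was in all 3 WT libraries on 6 MUG and 8 SADHU genes, and in pkl on 6 and 9. All 8 MUG genes were expressed in pkl, from 1.61 ± 0.50 FPKM for MUG2 to 12.2 ± 0.66 for MUG4 (SD, n = 3). Of the SADHU genes 10 were expressed, and 6 carried no mark in any library. MUG1 (AT3G04605.1) had 2302, 2445 and 2561 bp of H3K4me1 in WT and 2525, 2574 and 2473 bp in pkl, with 955 ± 12 bp of H3K4me3 in WT and 947 ± 39 bp in pkl. SADHU1-2 (AT1G30835.1) had no H3K4me1, 1158 ± 31 bp of H3K4me3 in WT and 1165 ± 30 bp in pkl.

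A small set of transposable element genes differed in cover between pkl and WT. For each mark, log2(bp under peaks + 100) was compared with limma over all nuclear genes marked in at least 3 of the 6 libraries, with Benjamini-Hochberg adjustment over all of them at a threshold of 0.05. For H3K4me1, 75 transposable element genes were tested, 2 were longer in pkl (2.67%, where 0.549% of all tested genes were) and 1 was shorter (1.33%, against 0.148%). For H3K4me2, 145 were tested, 6 were longer (4.14%, against 0.948%) and 6 were shorter (4.14%, against 0.634%). For H3K4me3, 85 were tested, 3 were longer (3.53%, against 1.14%) and 5 were shorter (5.88%, against 0.387%). The shares were above those of all genes in each direction, with few genes behind them and no test of the excess. The tested sets were also made up otherwise. Marked in all 6 libraries were 42 of the 75 (H3K4me1), 105 of the 145 (H3K4me2) and 67 of the 85 (H3K4me3). Of all tested genes 11609 of 13480, 16261 of 19091 and 15834 of 16781 were, a larger part for each mark. The excess is therefore not read as a result about transposable element genes. Counted without any test, genes whose 3 pkl values all lay above or all below the 3 WT values were nearer to the background. They were 11 above and 4 below for H3K4me1 (14.7% and 5.33%, against 11.3% and 2.8% of all tested genes), 32 and 8 for H3K4me2 (22.1% and 5.52%, against 18.8% and 3.8%) and 15 and 8 for H3K4me3 (17.6% and 9.41%, against 16.2% and 3.64%). All calls were of groups that did not overlap, and 3 of the 3, 11 of the 12 and 7 of the 8 called genes were at 0 bp in all 3 libraries of 1 genotype. Such genes passed the minimum of 3 marked libraries only through the other genotype, where they are high. The median log2 difference between pkl and WT was 0.12 for the tested transposable element genes and 0.04 for all tested genes in H3K4me1, and 0.04 and 0.03 in H3K4me3. H3K4me2 libraries were centred, since genes marked in all of them were longer in pkl by 0.16 on the log2 scale, and the medians were then −0.02 and −0.04. Leaving out any 1 WT library removed all shorter calls and leaving out any 1 pkl library all longer calls. Except at AT3G60965.1, which was marked in both genotypes, the test's minimum of 3 marked libraries brings this about.

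**Figure D3:**
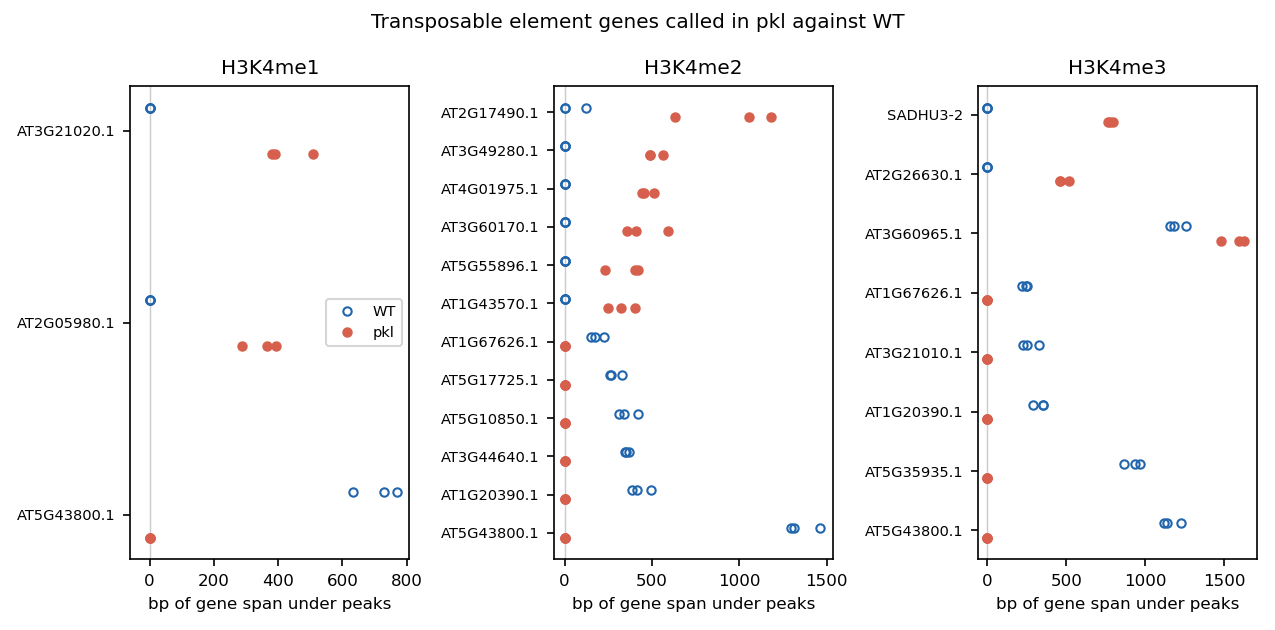
Length under peaks (bp) in each of the 3 WT and 3 pkl libraries for every transposable element gene called between pkl and WT, with 1 panel for each mark. Called genes other than AT2G17490.1 and AT3G60965.1 are at 0 bp in all libraries of 1 genotype, and AT5G43800.1 is at 0 bp in pkl for all 3 marks.

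AT5G43800.1 (chromosome 5, 17597379 to 17605019) lost all 3 marks. The WT libraries had 770, 632 and 729 bp of it under H3K4me1 peaks, 1465, 1316 and 1297 bp under H3K4me2 and 1227, 1139 and 1117 bp under H3K4me3. In the 9 pkl libraries of the 3 marks no peak covered it (limma, adjusted p = 6.6e-04, 3.5e-04 and 2.2e-06). The log2 values of genes at 0 bp depend on the 100 bp added and are not given. The p values of such genes, here and below, depend on it too. These genes were tested only through the group where they are high, and their lengths at 0 bp show no spread. Their p values are therefore given only to describe the calls. AT5G43800.1 had 0 counts in the 3 RNA libraries of pkl, and no PKL peak covered it in any of the 12 lists. The nearest other genes kept their marks: the neighbour AT5G43790 had 855, 859 and 835 bp of H3K4me3 in WT and 838, 872 and 902 bp in pkl. On the other side AGO10 (AT5G43810), an ARGONAUTE gene of shoot meristems, had 1388, 1147 and 965 bp in WT and 1393, 1424 and 1405 bp in pkl. What sets AT5G43800.1 apart was not tested.

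SADHU3-2 (AT3G42658.1, chromosome 3, 14749400 to 14750294, in a core window) gained H3K4me3. It had 0 bp in the 3 WT libraries and 778, 797 and 762 bp in the pkl libraries, which is most of its span (limma, adjusted p = 9.2e-07). H3K4me2 covered 0, 440 and 375 bp in pkl and 0 bp in WT. It was among the most abundant transposable element RNAs of pkl, at 45.4, 41.4 and 48.7 FPKM, and WT RNA was not analysed here. Both transposable element genes before it, AT3G42656.1 and AT3G42653.1, had 0 bp of every mark in both genotypes, and its neighbour AT3G42660 had 583, 608 and 548 bp of H3K4me3 in WT and 643, 655 and 658 bp in pkl.

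The other H3K4me3 calls were of shorter stretches. AT2G26630.1 (chromosome 2, 11327493 to 11328727) went from 0 bp in WT to 516, 461 and 462 bp in pkl (limma, adjusted p = 8.0e-06), with 10.5 ± 1.0 FPKM in pkl (SD, n = 3). AT3G60965.1 was longer on a peak present in both, from 1258, 1158 and 1183 bp to 1597, 1482 and 1628 bp, a log2 difference of 0.36 ± 0.05 (SE; limma, adjusted p = 0.0399). AT5G35935.1 had 970, 936 and 867 bp in WT and 0 bp in pkl (limma, adjusted p = 2.8e-06). AT1G20390.1, with 350, 287 and 351 bp in WT, AT1G67626.1, with 247, 249 and 219 bp, and AT3G21010.1, with 227, 251 and 327 bp, were also at 0 bp in pkl. AT1G20390.1 and AT1G67626.1 lost H3K4me2 as well, from 493, 388 and 413 bp and from 225, 152 and 176 bp to 0 bp (limma, adjusted p = 4.1e-04 and 1.1e-03). AT1G20390.1 still had 1.79, 2.58 and 2.22 FPKM in pkl, so its RNA was present where neither mark was listed.

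Changes in H3K4me2 alone went both ways. Longer in pkl were AT3G49280.1, from 0 bp to 491, 491 and 563 bp, AT4G01975.1, to 514, 455 and 445 bp, AT3G60170.1, to 356, 409 and 590 bp, AT1G43570.1, to 322, 406 and 248 bp, and AT5G55896.1, to 229, 418 and 402 bp. AT2G17490.1 rose from 0, 0 and 122 bp to 631, 1183 and 1059 bp. The adjusted p of these 6 lay between 4.2e-04 and 0.0322 (limma). AT5G55896.1, at 12.1 ± 1.2 FPKM (SD, n = 3), carried H3K4me3 in both genotypes, at 501 ± 47 and 577 ± 19 bp, and AT2G17490.1 carried H3K4me1 in both, at 2511 ± 463 and 2747 ± 338 bp. Shorter were AT3G44640.1, from 369, 347 and 350 bp to 0 bp, AT5G10850.1, from 423, 310 and 339 bp, and AT5G17725.1, from 261, 264 and 331 bp. For H3K4me1, AT2G05980.1 went from 0 bp to 365, 395 and 288 bp and AT3G21020.1 from 0 bp to 389, 510 and 381 bp (limma, adjusted p = 1.8e-03 and 1.5e-03). AT3G21020.1 lies next to AT3G21010.1, which lost H3K4me3, so that neighbouring transposable element genes moved in opposite directions in different marks.

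Over the genes marked in all 3 libraries of 1 genotype, the share marked in 0 of 3 libraries of the other was higher for transposable element genes than for other genes, by counts alone. For H3K4me3, 5 of the 73 marked in WT (6.85%) and 52 of 15990 other genes (0.325%) were unmarked in pkl. In H3K4me2, 6 of the 117 (5.13%) and 93 of 16986 (0.547%) were, and in H3K4me1, 2 of the 51 (3.92%) and 17 of 12010 (0.14%). Gains were closer for H3K4me3, at 2 of the 74 marked in pkl (2.70%) and 109 of 16222 (0.672%). For H3K4me2 they were 6 of the 128 (4.69%) and 142 of 17354 (0.818%), and for H3K4me1 3 of the 50 (6.0%) and 70 of 12235 (0.572%). Genes enter these counts by being marked throughout 1 genotype, and the sets are made up otherwise, as above. The shares are therefore not read as a result about transposable element genes either. Marked in all 6 libraries were 42 transposable element genes for H3K4me1, 105 for H3K4me2 and 67 for H3K4me3.

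PKL peaks were on few transposable element genes in every line. A gene was counted as bound where PKL peaks covered at least 50 bp of its span. In WT 4, 1 and 15 transposable element genes were bound, against 47, 49 and 48 in the jaw-5D libraries. The pifQ libraries had 65, 79 and 84, and those of hy5 30, 41 and 43. The mean share was 0.172% ± 0.190 (SD, n = 3) in WT, 1.24% ± 0.026 in jaw-5D, 1.96% ± 0.25 in pifQ and 0.978% ± 0.18 in hy5. Other genes were bound at 1.85% ± 1.80 in WT and 22.35% ± 0.86, 22.29% ± 0.97 and 19.4% ± 0.89 in the mutants. Transposable element genes were below other genes in all 12 libraries, by 15.4 percentage points on average (exact sign-flip permutation test, p = 0.0004883, the smallest possible, adjusted 0.001953), and by 6.03 in the core windows with the same p.

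Among the mutants pifQ had the most bound transposable element genes, and no 2 lines overlapped. Each pair of lines gave the smallest p that 3 against 3 libraries allow (exact permutation test, p = 0.1), which is not below 0.05. For other genes hy5 stood below while jaw-5D and pifQ overlapped. The share of transposable element genes bound, as a percentage of the share of other genes bound in the same library, was 5.54 ± 0.28 (SD, n = 3) in jaw-5D, 8.79 ± 1.2 in pifQ and 5.04 ± 0.86 in hy5, and 8.12 ± 3.5 in WT, which overlapped all 3. By this measure pifQ did not overlap jaw-5D or hy5 (exact permutation test, p = 0.1 for each pair, the smallest possible).

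Bound transposable element genes carried a histone mark more often, by counts, than transposable element genes at large and less often than bound other genes. In any of the 12 lists 133 were bound, and 37 of these (27.8%) carried a histone mark in any of the 18 histone lists, where 181 of all 3884 did. Of 11311 bound other genes 89.4% did. Bound in all 3 libraries of a line were 1 in WT, 26 in jaw-5D, 43 in pifQ and 17 in hy5. Of these, 65.4% in jaw-5D, 76.7% in pifQ and 70.6% in hy5 had no histone mark in any library, where 95.3% of all transposable element genes had none. Among other genes bound in the same way 12.9%, 13.7% and 13.8% had none. The histone lists came from WT and pkl and not from these mutants. The bound genes lay a median of 627 bp from another gene, 16 of the 133 were in core windows and 32 were expressed in pkl. A summit of a replicate 1 peak lay inside 17 of the 26, 22 of the 43 and 12 of the 17, a smaller part than for the histone marks, and for 11, 15 and 9 of them such a peak also reached another gene.

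The sets of genes bound in all 3 libraries overlapped between the lines. Jaw-5D and pifQ shared 23, which is 88.5% of the jaw-5D set and 53.5% of the pifQ set, and pifQ and hy5 shared 16, which is 37.2% and 94.1%. Jaw-5D and hy5 shared 14 (53.9% and 82.4%), and 14 were bound in all 9 mutant libraries. The like overlaps of other genes are not given here, so these percentages stand without a background. In pifQ alone, 3 were bound in all libraries and in none of the other mutants: AT3G22955.1, AT3G30724.1 and AT3G47875.1. That is 6.98% of the pifQ set, against 0.951% of the other genes bound in all 3 pifQ libraries. For jaw-5D and hy5 the like counts were 0 and 0, against 0.874% and 0.218% of other genes. The 3 genes were picked for being bound in pifQ alone, so the 6.98% is not read as a result about transposable element genes. None of the 3 had a histone mark or was expressed in pkl.

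**Figure D4:**
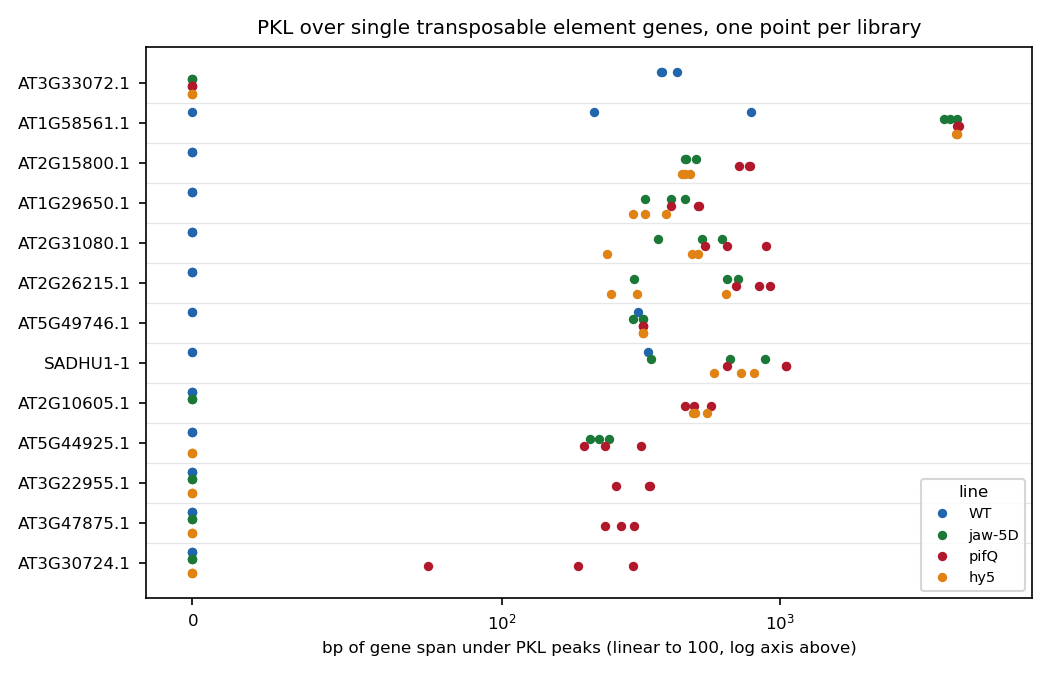
Length under PKL peaks (bp, on an axis that is linear up to 100 bp and logarithmic above) in each of the 3 libraries of WT, jaw-5D, pifQ and hy5 for transposable element genes named in the text. AT3G33072.1 is covered in WT alone, AT2G10605.1 in pifQ and hy5, AT5G44925.1 in jaw-5D and pifQ, and AT3G22955.1 in pifQ alone.

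Of the transposable element genes bound in all 9 mutant libraries, the 5 with the highest mean rank of their best peak by the authors' −log10 q are given here. AT1G25430.1 stood first, at percentiles 93.88 to 99.17 of the mutant lists, and pifQ lay above the other mutants there. It had 159, 148 and 267 bp in jaw-5D, 322, 581 and 565 bp in pifQ, 255, 262 and 200 bp in hy5 and 0, 0 and 249 bp in WT. AT5G39070.1, at percentiles 78.46 to 97.53, had 128, 112 and 266 bp in jaw-5D, 211, 163 and 138 bp in pifQ, 118, 129 and 123 bp in hy5 and 55, 0 and 113 bp in WT, and 0 counts in pkl. AT1G30390.1 had 421 ± 15, 461 ± 12 and 459 ± 35 bp (SD, n = 3) in the 3 mutants, in the same order, and 0, 0 and 218 bp in WT. AT1G58561.1 (chromosome 1, 21748675 to 21753246), which overlaps another gene and had 4.40 ± 0.29 FPKM (SD, n = 3) in pkl, had 215, 0 and 786 bp in WT and 3877, 4060 and 4309 bp in jaw-5D. It had 4344, 4312 and 4366 bp in pifQ and 4320, 4297 and 4279 bp in hy5, nearly its whole span. AT5G49746.1 (chromosome 5, 20209340 to 20209659) is 320 bp long and was covered over 296 to 320 bp in the 9 mutant libraries, and over 0, 0 and 309 bp in WT. At all 5 genes WT replicate 3, the library with the longest WT list, had a peak; WT replicate 1 had one at AT5G39070.1 and AT1G58561.1 and WT replicate 2 at none.

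SADHU1-1 (AT2G10410.1, chromosome 2, 4005995 to 4007044, in a core window) was bound and also had the most RNA. PKL covered 0, 0 and 336 bp of it in WT, 343, 657 and 883 bp in jaw-5D, 1045, 1050 and 645 bp in pifQ and 578, 806 and 723 bp in hy5. H3K4me3 covered 933, 861 and 887 bp in WT and 904, 894 and 898 bp in pkl, and neither of the other marks was listed on it. AT2G10405.1 had a best PKL peak of the same fold and score in jaw-5D replicate 2, pifQ replicates 1 and 2 and hy5 replicate 1. The PKL cover of SADHU1-1 in these libraries is therefore not particular to it. PKL was on 8 of the 16 SADHU genes and on 3 of the 8 MUG genes in at least 1 library.

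AT3G33072.1 (chromosome 3, 13631493 to 13634029, in a core window) went the other way. It had 427, 374 and 376 bp under PKL peaks in WT and 0 bp in all 9 mutant libraries, and was the 1 transposable element gene bound in all 3 WT libraries. Its peaks had an authors' fold enrichment of 14.6, 12.5 and 5.63 and ranked at percentiles 100, 99.84 and 99.96 of the 3 WT lists by −log10 q. It had no histone mark, 0 counts in pkl, and the nearest other gene was 58428 bp away. As noted for the lists, format and genotype cannot be told apart here.

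In limma's test of PKL cover over 7721 genes, 67 of them transposable element genes, 1 fit held all 12 libraries, so the comparisons below share libraries. Genes bound in all libraries were longer in the mutants than in WT by 1.29 (jaw-5D), 1.37 (pifQ) and 1.22 (hy5) on the log2 scale, and the libraries were centred on these genes. Relative to that shift, 6 transposable element genes were longer in jaw-5D than in WT (8.96%, where 14.2% of all genes were) and 6 shorter (8.96%, against 2.93%). In pifQ 6 were longer (8.96%, against 14.7%) and 1 shorter (1.49%, against 4.49%), and in hy5 3 were longer (4.48%, against 13.2%) and 9 shorter (13.4%, against 3.74%). The shares of longer calls were below those of all genes. Of the shorter calls, 4 in jaw-5D and 6 in hy5 were genes at 0 bp in all 6 libraries compared, which the centring alone moves down, and the 1 shorter call without overlap was AT3G33072.1 in each line. Without centring 26, 38 and 19 were longer (38.8%, 56.7% and 28.4%, against 57.1%, 58.8% and 48.3% of all genes) and 1 was shorter, AT3G33072.1 (against 0.0389%, 0.0259% and 0.0259%). By separation of the groups alone 26, 40 and 16 lay above WT (38.8%, 59.7% and 23.9%, against 61.2%, 61.6% and 50.9%) and AT3G33072.1 below it (against 0.0259% in each line). With 20 bp added in place of 100 the centred calls turned mostly to longer in jaw-5D (11 longer, 5 shorter) and in hy5 (11 and 5). Of all 7721 genes 2258 were then longer and 76 shorter in jaw-5D, and 2013 and 106 in hy5. The centred calls of both directions for jaw-5D, 12 in all, came to 7 without WT replicate 1, 7 without jaw-5D replicate 1 and 6 without jaw-5D replicate 3, and those for pifQ, 7 in all, came to 11 without WT replicate 3.

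Longer in each of the 3 mutants was AT2G15800.1, with 0 bp in WT, 454, 497 and 459 bp in jaw-5D, 777, 774 and 713 bp in pifQ and 472, 444 and 454 bp in hy5 (limma, adjusted p = 8.8e-03, 1.1e-03 and 8.4e-03). AT1G58561.1 was also called longer in each (limma, adjusted p from 2.1e-03 to 2.7e-03). AT1G29650.1, AT2G26215.1 and AT2G31080.1 were at 0 bp in WT and were called in jaw-5D and pifQ. They had 395 ± 64, 549 ± 218 and 501 ± 128 bp in jaw-5D and 473 ± 60, 815 ± 111 and 690 ± 181 bp in pifQ (SD, n = 3). In hy5 they had 337 ± 47, 396 ± 210 and 409 ± 148 bp. AT3G17050.1 was called in jaw-5D, at 1035, 1078 and 926 bp against 0 bp in WT. It had 469, 0 and 652 bp in pifQ and 0, 0 and 337 bp in hy5.

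Between the mutants, where the list format is the same, 7 transposable element genes were longer in pifQ than in jaw-5D (10.4%, against 2.25% of all genes) and 0 shorter (against 1.79%; limma, 0 also at an unadjusted p under 0.05). With pifQ replicate 1, 2 or 3 left out, 2, 2 and 1 were longer. By separation of the groups alone 17 lay above jaw-5D (25.4%, against 10%) and 1 below (1.49%, against 7.02%). A gene was tested where at least 3 of the 12 libraries had it bound. AT3G22955.1, AT3G47875.1 and AT3G30724.1 reached that through pifQ alone, where they are high, and cannot reach it with a pifQ library left out. These shares are therefore no support for a difference of transposable element genes as a set. AT2G10605.1 (chromosome 2, 4139728 to 4140985, in a core window) had 0 bp in WT and jaw-5D, 456, 488 and 562 bp in pifQ and 487, 543 and 494 bp in hy5 (limma, adjusted p = 3.3e-07 for pifQ and 6.2e-07 for hy5, each against jaw-5D). AT3G22955.1 had 256, 338 and 339 bp in pifQ and 0 bp in the 9 other PKL libraries. AT3G47875.1 had 234, 297 and 268 bp and AT3G30724.1 76, 296 and 188 bp in pifQ, also with 0 bp elsewhere. AT4G01490.1 and AT4G01530.1, with 310 ± 91 and 374 ± 34 bp in pifQ and 0 bp in jaw-5D (SD, n = 3), are both on chromosome 4 and overlapped with hy5 values. AT2G15800.1 was the seventh, longer by 0.58 ± 0.07 (SE) on the log2 scale (limma, adjusted p = 1.3e-03).

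In hy5 against jaw-5D 1 was longer (1.49%, against 0.764%), AT2G10605.1, and 1 shorter (1.49%, against 2.56%), AT5G44925.1. AT5G44925.1 (chromosome 5, 18142274 to 18146632) had 207, 242 and 224 bp in jaw-5D, 234, 197 and 316 bp in pifQ and 0 bp in hy5 and WT. Both directions together came to 5 without hy5 replicate 1 and 4 without hy5 replicate 3. In hy5 against pifQ 0 were longer (against 0.194%; limma, 0 also at an unadjusted p under 0.05) and 3 shorter (4.48%, against 0.751%), namely AT5G44925.1, AT3G22955.1 and AT3G47875.1. These libraries were centred by 0.15 on the log2 scale, and without centring 6 were shorter (8.96%, against 2.02%) and 0 longer (against 0.324%; limma, with 20 at an unadjusted p under 0.05 in both directions together). No shorter gene was called with pifQ replicate 2 or 3 left out. By separation of the groups alone hy5 had 1 above and 5 below jaw-5D (1.49% and 7.46%, against 4.29% and 11%), and 0 above and 19 below pifQ (28.4% below, against 2.53% above and 11.6% below). Genes bound in pifQ alone were tested only through the libraries in which they are high, so the shares below pifQ carry the same limit.

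RNA of transposable element genes was scarce in pkl. They took 28984, 29011 and 30038 counts in the 3 libraries, which is 0.168% ± 0.0026 of the total (SD, n = 3). At least 1 count was found for 326, 342 and 342 of them, and 3402 (87.6%) had 0 counts in all 3, against 19.2% of other genes. At the median exon length 3 counts, the upper limit that 0 counts allow, are 0.118 to 0.121 FPKM, and this covers counting error only. Expressed were 95 (2.45%), against 65.1% of other genes, with 20 in the core windows and 75 outside. Their median was 4.32 FPKM, against 14.8 FPKM for expressed other genes, and 27 had a mean of at least 10 FPKM. The WT columns of the RNA tables could not be tied to a labelled sample and were not used, so levels in pkl stand without a comparison. How reads that match several copies of an element were treated is not given in the sources used here, and its part in low values was not tested.

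A few genes held much of this RNA: the 10 with the highest FPKM took 47.2% of the counts in transposable element genes. SADHU1-1 stood first at 178, 169 and 172 FPKM, followed by AT4G04410.1 (chromosome 4, 2189515 to 2193763) at 83.4, 80.2 and 79.6 FPKM and AT2G11240.1 at 50.4, 53.1 and 52.6 FPKM. SADHU3-2 and Sadhu4-2 (AT1G03420.1), at 45.2 ± 3.6 and 40.0 ± 2.6 FPKM (SD, n = 3), overlapped between libraries. AT4G04293.1 (23.2 ± 4.5), AT3G28160.1 (21.4 ± 1.3), SADHU7-1 (20.7 ± 0.81), EXT11 (AT5G49080.1, 19.6 ± 1.8) and SADHU1-2 (19.6 ± 1.3 FPKM) did not differ from their neighbours in this order by more than their spread. So 5 of the 10 were SADHU genes. EXT11 is neither a SADHU nor a MUG gene by its symbol and was taken by its suffix alone. Whether it is a transposon was not tested.

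Some of the expressed genes carried no mark. H3K4me3 was in all 3 pkl libraries on 55 of the 95 expressed transposable element genes (57.9%), against 82.0% of expressed other genes. No histone mark was found in any library on 22 of the 95, among them, of the 10 highest, AT4G04410.1, AT4G04293.1 and, with the limit above, EXT11. Their median was 3.58 FPKM against 4.58 FPKM for the 73 with a mark in some library, 2 of the 22 overlapped another gene, 5 lay in core windows and 5 had PKL in some library. AT2G11240.1, in contrast, had 4527 ± 56 bp of H3K4me1 and 1117 ± 91 bp of H3K4me3 in WT and 4524 ± 280 and 1100 ± 23 bp in pkl.

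**Figure D5:**
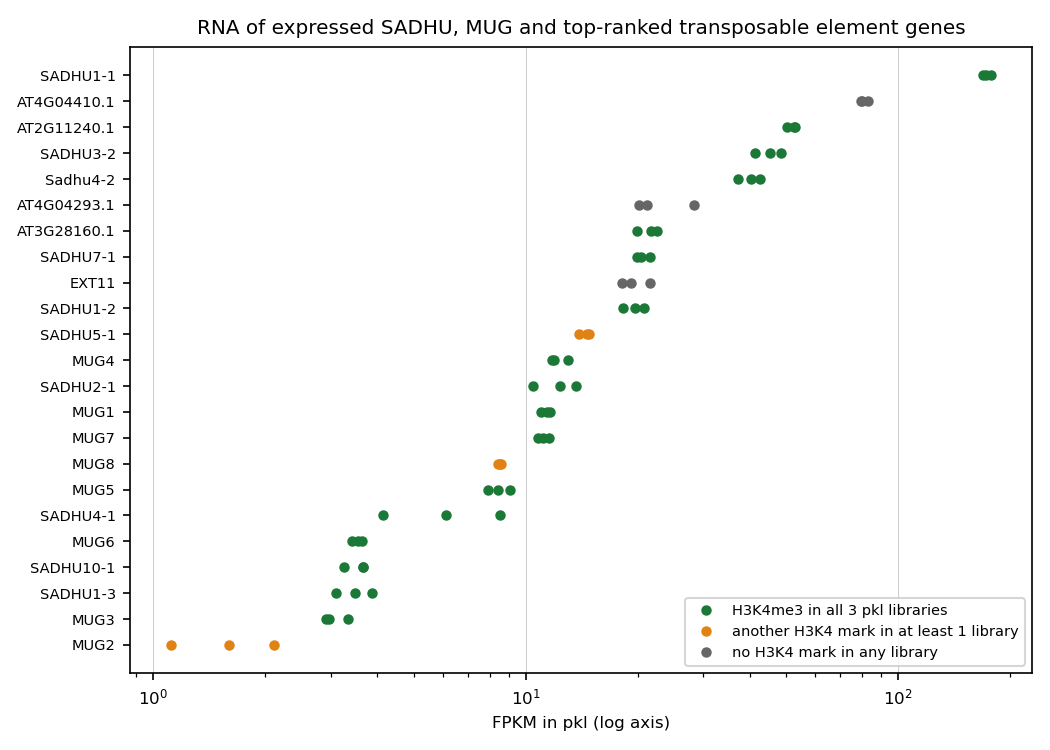
FPKM in the 3 pkl RNA libraries, on a log axis, of the SADHU and MUG genes and the 10 highest transposable element genes where the mean is at least 1 FPKM; green marks H3K4me3 in all 3 pkl libraries, orange another H3K4 mark in at least 1 library and grey no H3K4 mark in any. SADHU1-1 is highest at 169 to 178 FPKM, and AT4G04410.1, second at 79.6 to 83.4 FPKM, has no histone mark in any library.

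Elements known to move or to be released in silencing mutants were at or near 0 in pkl. EVD (AT5G17125.1), a copia retrotransposon, AtMu1 (AT4G08680.1), a Mutator element, and 8 copies of ONSEN, a heat-induced copia retrotransposon, had 0 bp of every mark and of PKL in all 30 lists. The limit on reads that match several copies holds for these elements too. Their highest mean level in pkl was 0.221 ± 0.11 FPKM (SD, n = 3), at the ONSEN copy AT5G13205.1, and the median of the 10 was 0.0064 FPKM. For these genes 3 counts are 0.054 to 0.097 FPKM, so the means of 9 of the 10 lay below the limit that 0 counts allow. Genes derived from transposases that now serve the plant were unlike them: FHY3 and FAR1, transcription factors of far-red light signalling, DAYSLEEPER, MUG1 and MUG2 all carried H3K4me1 in all 6 libraries and were expressed, at 23.1 ± 0.42 FPKM for FHY3 and 1.61 ± 0.50 for MUG2. The other marks were not on all 5. In all 3 libraries of either genotype H3K4me3 was on 4 of the 5 and H3K4me2 on 3 of the 5.

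Among genes that control the silencing of transposable elements, 1 differed in H3K4 cover between pkl and WT. A list of 29 held DNA methyltransferases such as MET1 and CMT3, the remodeller DDM1, the histone methyltransferase KYP and parts of RNA-directed DNA methylation. All 29 were expressed in pkl, at a median of 7.19 FPKM, and 26 carried H3K4me3 in all 3 libraries of either genotype. For H3K4me1, 27 were tested with 0 calls (4 at an unadjusted p under 0.05; 0.549% of all tested genes were longer and 0.148% shorter) and a median log2 difference of 0.05 between pkl and WT, and for H3K4me2, 29 with 0 calls (5 unadjusted; 0.948% and 0.634% of all) and a median of 0.02 (limma). For H3K4me3, 28 were tested, 1 was shorter (against the 0.387% of all genes above) and the median was 0.05. The shorter gene was ROS1 (AT2G36490, symbol DML1 in the reference table), a DNA glycosylase that removes methylated cytosine, with 294, 574 and 574 bp in WT and 0, 0 and 0 bp in pkl (limma, adjusted p = 8.1e-03). It was still expressed at 1.74, 2.15 and 2.11 FPKM in the 3 libraries. For PKL cover 4 of the 29 were tested, and the 1 call, AGO6 shorter in hy5 than in WT (where 3.74% of all tested genes were), was of groups that overlapped. Its log2 difference was −1.25 after centring, which by itself moved hy5 down by 1.22 against WT. The call is therefore not read as a loss of PKL at AGO6.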

How the data were processed

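Peaks of H3K4me1, H3K4me2 and H3K4me3 (WT and pkl) and of PKL (WT, jaw-5D, pifQ and hy5) were read from 1 deposited list per library, with 3 libraries a group. Per the file headers and columns, the authors' lists give each peak a length, a fold enrichment, a −log10 p and a −log10 q value and a score, with 1 other column for the summit position. RNA from pkl was read from the authors' tables of raw counts per gene and of FPKM. The submitters' processing notes name the build TAIR10 and, with no role given, MACS2 2.2.5, Bowtie2 2.3.3, deepTools, HISAT2 2.1.0, SAMtools 1.6 and fastp. Left out were 6 RNA columns that belong to no labelled sample. IgG inputs and Hi-C samples were not analysed here.

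Cover was the bp of a gene's span, from its first to its last exon base, under the union of a library's peaks. A gene was marked at 150 bp of a histone mark and bound at 50 bp of PKL. Shares were compared with exact permutation tests over libraries. Lengths were compared with limma 3.58.1 (R 4.3.3) on log2(bp + 100) over all nuclear genes marked in at least 3 libraries, with Benjamini-Hochberg adjustment. The libraries were centred on genes marked in all of them where that moved the group difference by over 0.1 on the log2 scale. The limma step was checked on simulated data, and the rest was computed in Python 3.11.15. Values are lengths called as enriched and not amounts of signal. FPKM levels were described without a test.

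Named were the called genes whose groups did not overlap (up to 8 per direction), the 4 with the widest cover per mark, the genes with the best ranked PKL peaks, the 10 highest by FPKM, all SADHU and MUG genes with their counts, and the lists of studied transposons, domesticated transposases and silencing genes. The transposable element genes, the lists and the tests were chosen with earlier results of these data known. Replicate numbers did not pair the libraries: correlations of same-numbered deviations lay between −0.088 and 0.0813.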

Additional observations from a re-analysis of the deposited data

How the results depend on the processing

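The lower share of marked or bound transposable element genes than of other genes kept its sign under every setting tried, but its size moved. Without peaks under a −log10 q of 10 it was −23.46 percentage points for H3K4me1, −32.09 for H3K4me2, −50.4 for H3K4me3 and −6.029 for PKL, and in the core windows −8.625, −6.891, −21.26 and −2.286. By percent of summed span it was −34.94, −22.37, −19.12 and −3.057. With 1 library left out it lay between −43.28 and −42.72 percentage points for H3K4me1, −59.42 and −58.87 for H3K4me2, −54.19 and −53.94 for H3K4me3 and −16.73 and −14.79 for PKL, and in the core windows between −17.32 and −17.01, −21.54 and −20.91, −22.85 and −22.71, and −6.563 and −5.755; the exact p with 5 histone libraries is 0.0625, the smallest possible. The share in pkl minus WT ranged from −0.03433 (the 1 reversal, H3K4me1 without pkl replicate 3) to 0.2103 for H3K4me1, from 0.05149 to 0.2188 for H3K4me2 and from 0.008582 to 0.03433 for H3K4me3.

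Counts of called genes were less stable. For pkl against WT, H3K4me1 calls (3) came to 5 with 20 bp added in place of 100, and the 3 marks had 1, 7 and 5 when peaks under a −log10 q of 10 were dropped. With that stricter q 19, 78 and 73 were tested. Of all 7847, 10844 and 15643 genes 328, 457 and 189 were then longer and 4, 30 and 34 shorter. A replicate block left 0 H3K4me1 calls by limma, with the numbers not pairing the libraries, and moved no other count by over 1.5 times. Leaving out 1 library gave 1 to 2, 6 to 7 and 2 to 5 calls. For PKL against WT the direction of most calls changed too. For jaw-5D, then pifQ, then hy5, longer and shorter calls were 26 and 1, 38 and 1, and 19 and 1 without centring (27, 39 and 20 in all). With genes bound in at least 1 library they were 6 and 47, 7 and 24, and 5 and 48 (53, 31 and 53) of 133 tested. Of all 11448 genes tested in that setting 1255 and 2292, 1332 and 2946, and 1206 and 2647 were longer and shorter. With 1000 bp upstream the calls were 50 and 12, 52 and 4, and 42 and 18 (62, 56 and 60) of 210 tested. Of all 11782 genes 4151 and 169, 3906 and 179, and 3868 and 231 were called. With 20 bp added the calls were 11 and 5, 18 and 1 (19), and 11 and 5 of 67. Of all 7721 genes 2258 and 76, 2275 and 69, and 2013 and 106 were called. The stricter q left 2, 4 and 3 of 17, where of all 3109 genes 668 and 22, 402 and 135, and 529 and 5 were called. Leaving out 1 library gave 6 to 12, 6 to 11 and 8 to 16. For pifQ against jaw-5D, hy5 against jaw-5D and hy5 against pifQ the stricter q gave 1, 1 and 1. Of all 3109 genes 40 and 209, 41 and 116, and 54 and 28 were then longer and shorter. The upstream bases gave 12, 7 and 9, where of all 11782 genes 159 and 131, 76 and 224, and 22 and 102 were. Leaving out 1 library gave 1 to 7, 2 to 5 and 0 to 4, and hy5 against pifQ had 6 without centring. Genes bound in pifQ alone fall below the minimum of 3 libraries when a pifQ library is left out. The cause of the other moves was not tested. Expressed genes in pkl numbered 97 to 99 over any 2 libraries, 116 at 0.5 FPKM and 81 without genes that overlap another. Peak lists of unknown read depth limit what could be detected.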
